A study of Mus musculus with 8 samples.

Results

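Ttr, Otx2, Rarres2, Enpp2, Clic6, Folr1 and Aqp1 are 7 genes known from the choroid plexus, and their expression was examined in cultured mouse neural stem cells (NSCs). All probe sets of the array annotated to one of these symbols alone were taken, whatever their values. These were 12 of 45101 probe sets, for 6 of the 7 genes and of 18194 genes on the array. Enpp2 had no such probe set in the annotation table and was not analysed here. Of the 12, 7 probe sets for 4 genes (Ttr, Otx2, Rarres2 and Folr1) reached a signal of 50 on at least 2 of the 8 arrays and entered the main fit, as did 15679 probe sets in all. The other 5, for Rarres2, Clic6 and Aqp1, were tested in a fit on all probe sets.

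The NSCs were grown as floating secondary neurospheres in 4 groups of 2 arrays each. They were cultured with recombinant CHIL3 (rcCHIL3) for 7 days, with MHM + GF for 7 days, with rcCHIL3 for 3 days or with MHM + GF for 3 days. CHIL3 is a chitinase-like protein, which the labels call ECF-L, and the rcCHIL3 of the study was medium conditioned by transfected HEK293T cells, a human embryonic kidney line. MHM + GF is a hormone-supplemented medium with the growth factors EGF and FGF-2. The conditioned medium was collected in MHM, and the study names a combination with growth factors (rcCHIL3 + GF) apart from rcCHIL3, the name it uses for the arrays. By these names the media differed in CHIL3, in the growth factors and in other products of the HEK293T cells, which cannot be told apart. The series gives the source as adult mouse brain, while the study describes both embryonic and adult striatum, with adult wild-type C57BL/6J mice and wild-type ICR embryos among its animals. Which of these gave the cells for the arrays is not stated.

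The choroid plexus is a ciliated epithelium in the brain ventricles, which secretes cerebrospinal fluid and carries nutrients and hormones into it. OTX2 is a homeodomain transcription factor needed for forming and maintaining this epithelium, and it also acts in the forebrain and in retinal pigment epithelium. TTR, the carrier of thyroxine and of retinol with its binding protein, is the best-known product of choroid plexus epithelium and of liver. FOLR1 takes up folate and AQP1 is a water channel, both known from the surface of choroid plexus epithelium. CLIC6 belongs to the chloride intracellular channel family, RARRES2 is the secreted chemoattractant chemerin, and Enpp2 encodes autotaxin, a secreted enzyme that makes lysophosphatidic acid.

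OTX2 is known to bind the motif TAATCC. The promoter table of RefSeq (build GRCm38.p6) held windows from 250 bases before to 50 bases after the start for 2 of these genes, 4 for Otx2 and 1 for Aqp1. The motif was searched on both strands, as TAATCC and as its complement GGATTA, and 1 of the 5 windows held it. That window is shown because it belongs to Otx2 itself, the gene that was lower in rcCHIL3 at both times. It lies on the minus strand at chr14:48665060-48665359, and the capitals mark the motif.
Otx2 promoter window: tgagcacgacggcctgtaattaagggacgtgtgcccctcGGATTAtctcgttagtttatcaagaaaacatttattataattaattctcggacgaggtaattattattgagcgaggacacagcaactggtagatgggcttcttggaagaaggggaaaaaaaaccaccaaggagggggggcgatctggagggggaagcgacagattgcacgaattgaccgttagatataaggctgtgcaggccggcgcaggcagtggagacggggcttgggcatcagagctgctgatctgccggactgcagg
Over all mouse promoter windows of this length, 2320 of 32851 (7.06%) held the motif, and a match of letters is no evidence that the factor binds there.

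Signals are linear intensities, rescaled so that each array averaged 100 over all probe sets. The median probe set of an array then lay between 13.3 and 15.0, and 30.1% to 31.5% of the probe sets reached 50. The arrays of a group correlated at r between 0.992 and 0.994. The 15 NSC and glial markers on the array all passed the filter, with Sox2 averaging between 1728 and 2055 in the groups, although nestin (Nes) reached 50 in the mean only in MHM + GF at 3 days (187) and averaged between 13.8 and 29.9 in the other groups. Changes are differences of log2(signal + 20) with their standard errors (SE), which understate the change of weak probe sets, and adjusted p-values come from limma, with a threshold of 0.05. The study describes 2 independent experiments per group. Levels of different genes are not compared, since probe sets differ in their response.

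Otx2 was lower in rcCHIL3 than in MHM + GF at both times, by about the same amount. Its only probe set, 1425926_a_at, gave signals of 193 and 197 with rcCHIL3 for 7 days, against 291 and 260 with MHM + GF for 7 days. At 3 days the signals were 214 and 227 with rcCHIL3, against 287 and 344 with MHM + GF. Both rcCHIL3 arrays lay below both MHM + GF arrays at each time. The change was -0.47 (SE 0.09, adjusted p = 0.00117) at 3 days and -0.46 (SE 0.09, adjusted p = 0.00206) at 7 days. In mean signals this was 0.700 and 0.708 of the level in MHM + GF. The difference between these effects was 0.02, with a 95% interval from -0.27 to 0.30.

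Over time Otx2 did not pass the test in either medium. The change from 3 to 7 days was -0.18 (SE 0.09, adjusted p = 0.118) in MHM + GF and -0.16 (SE 0.09, adjusted p = 0.197) in rcCHIL3. The groups ranked, from the highest mean down, MHM + GF at 3 days, MHM + GF at 7 days, rcCHIL3 at 3 days and rcCHIL3 at 7 days. The neighbours within a medium did not differ past the threshold. Without array 1 of MHM + GF at 3 days, the fall of Otx2 over time in that medium was called (-0.30, adjusted p = 0.0244).

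**Figure D1:**
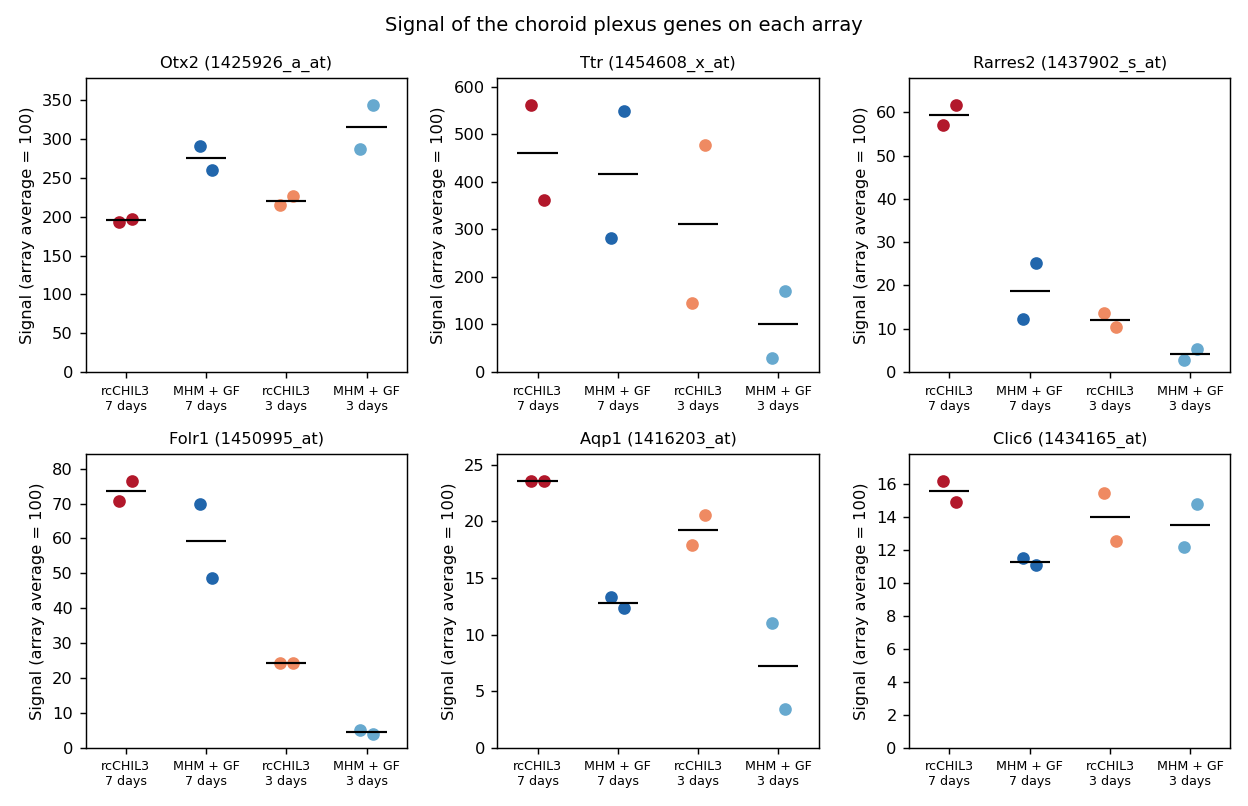
Signal of the brightest probe set of each gene on every array (vertical axes, array average 100, starting at 0) in the 4 groups; points are arrays and horizontal lines are means of 2 arrays. Otx2 lay between 193 and 227 on the 4 rcCHIL3 arrays and between 260 and 344 on the 4 MHM + GF arrays, while the 2 arrays of each group were far apart for Ttr.

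Ttr signals differed widely within a group. The brightest of its 4 probe sets, 1454608_x_at, gave 561 and 361 with rcCHIL3 for 7 days, against 282 and 549 with MHM + GF for 7 days. At 3 days it gave 146 and 477 with rcCHIL3, against 30.3 and 171 with MHM + GF. The groups overlapped in both comparisons of media. The lowest signal of the series, on array 1 of MHM + GF at 3 days, was well apart from the other 7.

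The other 3 probe sets of Ttr followed the same course. Probe set 1459737_s_at ranged over the 8 arrays between 34.9 and 443, 1455913_x_at between 14.9 and 316, and 1451580_a_at between 11.0 and 199. On array 1 of MHM + GF at 3 days the 4 Ttr probe sets were all below 50. There 1455913_x_at (14.9) and 1451580_a_at (11.0) lay near the median probe set of the array, at 14.5. Over the 8 arrays the 6 pairs of Ttr probe sets correlated at r between 0.994 and 0.999, as a description. All 4 therefore reported the same differences between arrays, and they count as 1 gene. Since some of their probes may overlap or cross-match, as their suffixes allow, they are not independent measurements.

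**Figure D2:**
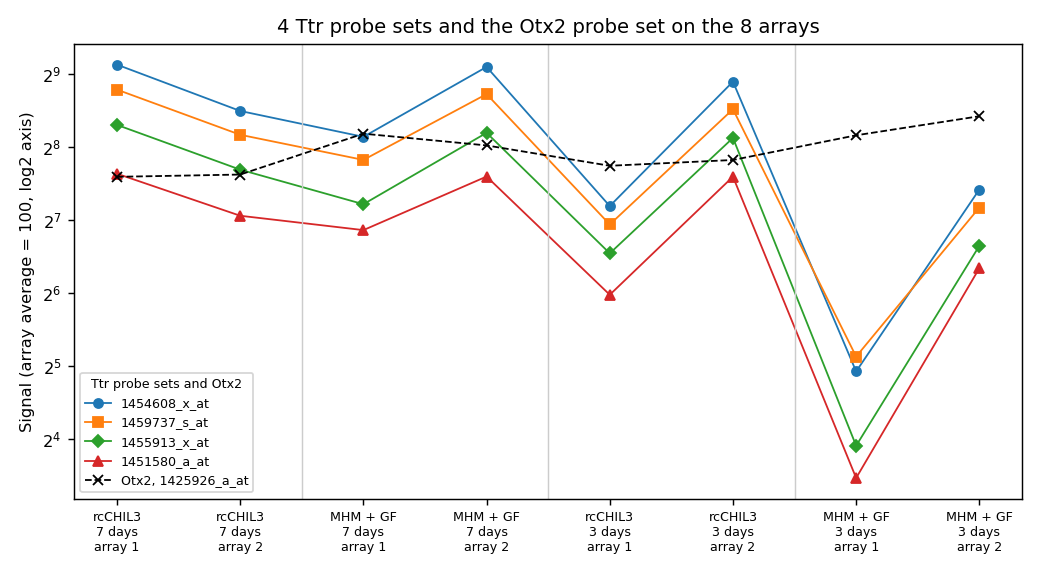
Signal (vertical axis, log2, array average 100) of the 4 Ttr probe sets and of the Otx2 probe set on the 8 arrays, with gray lines between groups. The 4 Ttr probe sets moved in parallel from array to array, between 30.3 and 561 for the brightest, while Otx2 stayed between 193 and 344.

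Among the 15679 probe sets of the filter, those of Ttr spread the most between arrays of a group. For its 4 probe sets the SD within groups was 0.96, 0.89, 0.84 and 0.83 on the log2 scale, and no other probe set had one as large. The median probe set had 0.089, Otx2 had 0.11, Folr1 0.14 and Rarres2 0.19. For the brightest probe set the higher array of a group was 1.55 times the lower in rcCHIL3 at 7 days, 1.95 times in MHM + GF at 7 days, 3.27 times in rcCHIL3 at 3 days and 5.65 times in MHM + GF at 3 days. Array 2 was the higher in 3 groups, and array 1 in rcCHIL3 at 7 days.

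No other gene showed so wide a spread at 3 days in both media in the direction of Ttr. At that time the arrays of a group differed by at least 1 on the log2 scale for 11 probe sets of the filter in rcCHIL3 and for 8 in MHM + GF. Those that did so in both groups and in the direction of Ttr were 4, its own probe sets. A difference in cell make-up between cultures and one in RNA per cell cannot be told apart in such bulk samples.

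**Figure D3:**
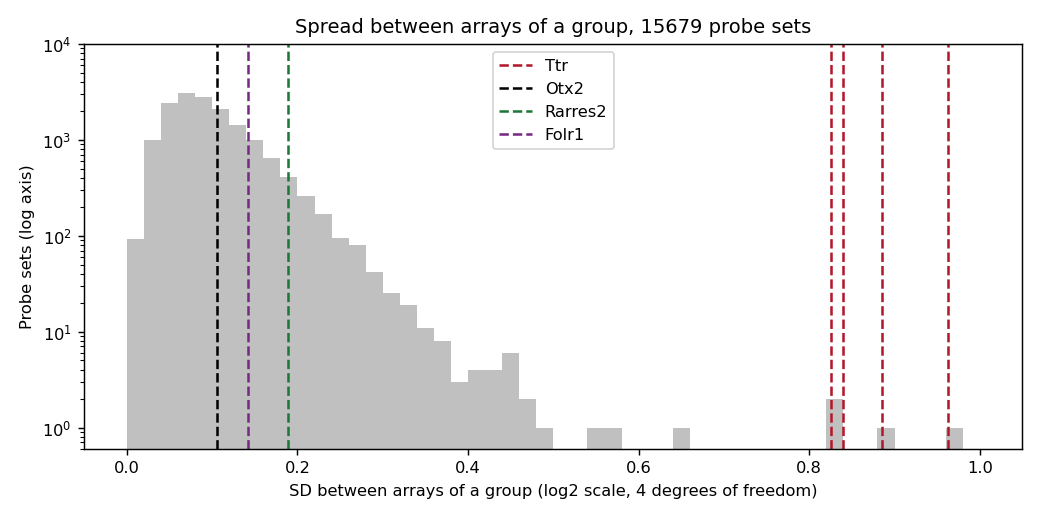
Number of probe sets (vertical axis, log) by the SD between arrays of a group (horizontal axis, log2 scale, 4 degrees of freedom) for the 15679 probe sets of the filter; dashed lines mark the probe sets of Ttr, Otx2, Folr1 and Rarres2. The 4 Ttr probe sets lie between 0.83 and 0.96, apart from all others, and Otx2 lies at 0.11, close to the median of 0.089.

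Against this spread, Ttr was called higher with time in MHM + GF and higher in rcCHIL3 at 3 days, and in no other comparison. The change was 2.08 at 7 days against 3 days in MHM + GF (SE 0.58, adjusted p = 0.00954), with both 7-day arrays above both 3-day arrays, and all 4 probe sets passed, with changes between 1.61 and 2.08. In rcCHIL3 the change with time was 0.71 (SE 0.58, 95% interval -0.56 to 1.98). Between media it was 1.55 (SE 0.58, adjusted p = 0.0431) at 3 days and 0.18 (SE 0.58, 95% interval -1.09 to 1.45) at 7 days. At 3 days 3 of the 4 probe sets passed, and 1451580_a_at did not (1.25, adjusted p = 0.0566). The test of the difference between the effects at 7 and 3 days gave -1.37 (SE 0.82, adjusted p = 0.204). These comparisons share the arrays of MHM + GF at 3 days.

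The called differences of Ttr rested on how its spread was estimated and on single arrays. The fit used a moderated SD of 0.58 in place of its own 0.96, and with robust moderation, which kept 0.93, neither was called (adjusted p = 0.239 between media at 3 days and 0.126 with time in MHM + GF). Without array 1 of MHM + GF at 3 days the changes were 0.59 (adjusted p = 0.402) and 1.12 (adjusted p = 0.106). Without array 2 of rcCHIL3 at 3 days the change between media at 3 days was 0.76 (adjusted p = 0.366), and without array 2 of MHM + GF at 7 days the change with time was 1.63 (adjusted p = 0.0721). Leaving out array 1 or 2 of rcCHIL3 at 7 days, which enter only through the pooled spread, gave an adjusted p of 0.0508 or 0.0509 for the difference at 3 days. Without array 2 of MHM + GF at 3 days, the effects at 7 and 3 days differed (-2.33, adjusted p = 0.0235).

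Rarres2 was higher in rcCHIL3 at 7 days and rose with time in both media. Its brightest probe set, 1437902_s_at, gave 57.1 and 61.7 with rcCHIL3 for 7 days, against 12.3 and 25.3 with MHM + GF for 7 days. At 3 days it gave 13.6 and 10.5 with rcCHIL3, against 2.9 and 5.4 with MHM + GF. Only the rcCHIL3 arrays at 7 days reached 50, and those at 3 days in either medium were below 15. The rcCHIL3 arrays lay above the MHM + GF arrays at both times.

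The change in Rarres2 was 1.05 (SE 0.15, adjusted p = 0.000186) at 7 days and 0.41 (SE 0.15, adjusted p = 0.0366) at 3 days. The probe set entered the main fit only through the rcCHIL3 arrays at 7 days, where it is high, and in the fit on all probe sets the adjusted p was 0.00313 at 7 days and 0.128 at 3 days. With time it was 1.31 (SE 0.15, adjusted p = 4.8e-05) in rcCHIL3 and 0.67 (SE 0.15, adjusted p = 0.00245) in MHM + GF. On the log2(signal + 20) scale the changes at 7 and 3 days differed by 0.64 (SE 0.21, adjusted p = 0.0285). In mean signals without the offset the ratio between media was 3.16 at 7 days and 2.92 at 3 days, and 2.26 and 2.41 for 1428538_s_at, so a difference between the times is not shown as a ratio. All 3-day arrays lay at or below the median probe set, where the offset compresses a ratio most. The call of this difference was lost without array 2 of MHM + GF at 3 days, array 1 of MHM + GF at 7 days, array 2 of rcCHIL3 at 3 days or either array of rcCHIL3 at 7 days, with differences between 0.40 and 0.68 and adjusted p of at most 0.0974. The call at 3 days was lost when any array of the 3-day groups was left out, with changes between 0.34 and 0.49 and adjusted p between 0.0555 and 0.180.

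The other 2 probe sets of Rarres2 lay under the filter and differed from each other. Probe set 1428538_s_at gave 38.9 and 47.6 with rcCHIL3 for 7 days, against 16.6 and 21.7 with MHM + GF for 7 days. At 3 days it was at 7.8 and 8.6 with rcCHIL3, against 1.7 and 5.1 with MHM + GF. Like the brightest probe set it was called higher at 7 days in rcCHIL3 (0.69, SE 0.13, adjusted p = 0.00773) and higher at 7 than at 3 days in both media. Probe set 1425091_at stayed between 3.6 and 13.2, with no call in any comparison.

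Folr1 rose with time in both media and was higher in rcCHIL3 at 3 days. Its only probe set, 1450995_at, gave 70.9 and 76.5 with rcCHIL3 for 7 days, against 69.9 and 48.6 with MHM + GF for 7 days. At 3 days it gave 24.3 and 24.4 with rcCHIL3, against 5.0 and 4.0 with MHM + GF. Both arrays of MHM + GF at 3 days lay below the median of all probe sets, so a fold against that group is not given. The 7-day arrays were above the 3-day arrays in each medium.

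The change in Folr1 with time was 1.68 (SE 0.13, adjusted p = 6.7e-07) in MHM + GF and 1.08 (SE 0.13, adjusted p = 6.1e-05) in rcCHIL3. Between media it was 0.86 (SE 0.13, adjusted p = 0.00016) at 3 days and 0.25 (95% interval -0.02 to 0.53, adjusted p = 0.122) at 7 days. The probe set reached 50 only on 7-day arrays, where it is high, so the filter and the test with time are not independent. In the fit on all probe sets the adjusted p was 4.1e-05 with time in MHM + GF and 0.00215 between media at 3 days. The effect of rcCHIL3 was smaller at 7 than at 3 days by -0.60 (SE 0.18, adjusted p = 0.0184). That difference was no longer called without array 2 of MHM + GF at 3 days, array 1 of MHM + GF at 7 days (-0.41, adjusted p = 0.0599), either array of rcCHIL3 at 3 days or array 1 of rcCHIL3 at 7 days. Without array 1 of MHM + GF at 7 days Folr1 was called higher in rcCHIL3 at 7 days too (0.45, adjusted p = 0.0145).

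Aqp1 and Clic6 were weak on all arrays. Aqp1 (1416203_at) gave 23.6 and 23.5 with rcCHIL3 for 7 days, against 13.3 and 12.3 with MHM + GF for 7 days. At 3 days it gave 18.0 and 20.6 with rcCHIL3, against 11.0 and 3.4 with MHM + GF. All 4 rcCHIL3 arrays were above all 4 MHM + GF arrays. In the fit on all probe sets the change was 0.54 at 3 days (SE 0.14, adjusted p = 0.0259) and 0.41 at 7 days (SE 0.14, adjusted p = 0.0904), and with time neither medium passed the test. In that fit 19.3% of all probe sets were called in either direction at 3 days and 15.2% at 7 days between media, and 23.6% in MHM + GF and 12.0% in rcCHIL3 with time.

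Clic6 did not pass the test in any comparison. Probe set 1434165_at stayed between 11.1 and 16.2 on the 8 arrays, about the level of the median probe set. Probe set 1454866_s_at stayed between 0.35 and 6.4. For the brighter probe set the change between media was 0.02 (95% interval -0.22 to 0.26) at 3 days and 0.18 (95% interval -0.05 to 0.42) at 7 days.

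Counted over the 7 probe sets in the filter, 5 were higher and 1 lower in rcCHIL3 at 3 days, but 3 of the 5 were Ttr. At 7 days 1 was higher and 1 lower. With time 6 were higher in MHM + GF, 4 of them Ttr, and 2 in rcCHIL3, and none was lower. The effects of rcCHIL3 differed between the times for 1 in each direction. Of all probe sets tested, 27.7% were higher and 22.5% lower at 3 days, 21.3% and 22.7% at 7 days, 31.1% and 26.0% with time in MHM + GF, and 18.0% and 17.9% with time in rcCHIL3. The difference of effects was called positive in 18.7% and negative in 22.7%. By brightest probe set, 3 of the 4 genes were higher and 1 lower at 3 days, with Ttr and Rarres2 resting on the fits above. Of all genes tested, 30.3% were called higher and 22.1% lower in that comparison. At 7 days 1 gene was higher (Rarres2, which passed the filter only through the rcCHIL3 arrays at 7 days, so its count supports nothing) and 1 lower (Otx2), against 21.8% and 22.6% of all genes. With time, 3 genes were higher and none lower in MHM + GF (34.0% and 24.2% of all genes). In rcCHIL3, 2 were higher and none lower (20.4% and 18.1%). The 3 were Ttr, whose call rested on single arrays, and Rarres2 and Folr1, which were also the 2 in rcCHIL3. Rarres2 and Folr1 reached 50 only on 7-day arrays, where they are high, so their counts with time support nothing. The effects of rcCHIL3 at 7 and 3 days differed for 1 gene in each direction, against 19.2% (larger at 7 days) and 24.1% (smaller) of all genes.

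The median change of the 4 genes was 0.63 at 3 days and 0.22 at 7 days between media, and 1.17 in MHM + GF and 0.89 in rcCHIL3 with time. For all genes tested it was 0.04, -0.01, 0.07 and 0.01 in the same comparisons. The 4 genes that passed are those that reached the filter in at least 1 group, so these medians do not describe all 7. Rarres2 and Folr1 reached 50 only on 7-day arrays, where they are high, so the medians with time support nothing. Rarres2 did so only with rcCHIL3, which also enters the median between media at 7 days. Ttr, Rarres2 and Folr1 had the same order of group means, with rcCHIL3 at 7 days highest, then MHM + GF at 7 days, rcCHIL3 at 3 days and MHM + GF at 3 days lowest. In this order the top pair was not called for Ttr, where it turned round without array 1 of either 7-day group, nor for Folr1. The middle pair, MHM + GF at 7 days and rcCHIL3 at 3 days, was not tested, and Otx2 had another order.

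**Figure D4:**
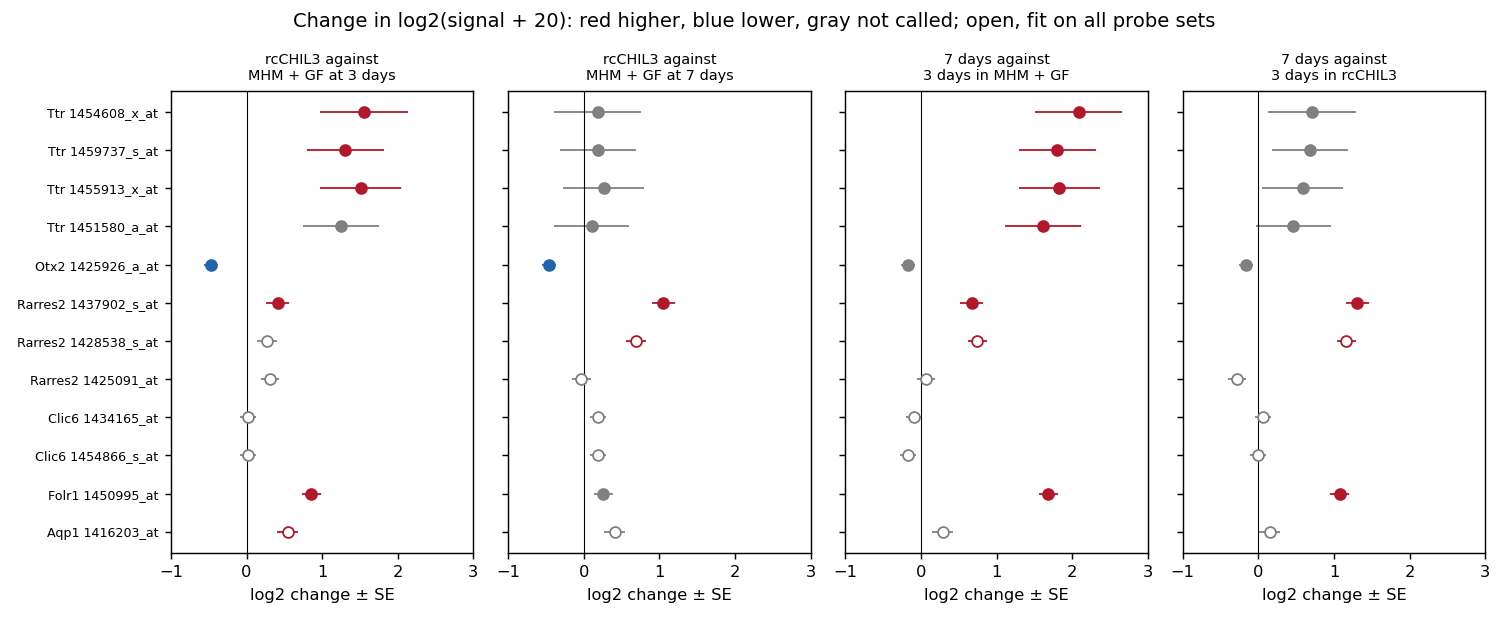
Change on the log2(signal + 20) scale with its SE (horizontal axes) for the 12 probe sets in 4 comparisons; filled points come from the main fit, open points from the fit on all probe sets, red is called higher, blue lower and gray not called. Otx2 was lower in rcCHIL3 at both times (-0.47 and -0.46), and the SE of the brightest Ttr probe set (0.58) was above the 0.09 to 0.15 of the other genes in the main fit.

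The genes whose signals followed each gene most closely over the 8 arrays were listed by Pearson correlation, without a test, since all such values share the 4 groups. For Otx2 they were Gins1 (r = 0.97), Slc30a10, Nmral1, Cdk5r1 and Cenpk. Gins1 is a subunit of the DNA replication helicase and Cenpk belongs to the kinetochore. For Ttr they were Smim14 (r = 0.97), BC004004, Sgta, Coq5 and Rbck1, all with far smaller differences between arrays, Smim14 ranging between 421 and 800. For Folr1 they were Tspan15 (r = 0.996), Hspa2, Btbd11, Gnpda2 and Pgrmc1, and for Rarres2 Wnt5a (r = 0.99), S100a3, Lrba, A830010M20Rik and Stard10. For the weak Aqp1 and Clic6 they were led by Zfp830 and Cep44.

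Most other genes of choroid plexus epithelium had low signals. Of 38 further genes listed for this epithelium 35 were on the array, and 25 were below 50 on all 8 arrays. By the filter, which asks for 50 on at least 2 arrays, 9 of the 35 passed. Of all genes on the array, 8975 of 18194 did. The defining Kl (the hormone co-receptor klotho) ranged between 0.36 and 4.4, Htr2c (a serotonin receptor) between 2.2 and 5.1, Kcnj13 (a potassium channel) between 0.58 and 4.9 and Slc4a5 (a bicarbonate transporter) between 0.39 and 0.77. Sostdc1 and Cldn2 did not exceed 11.2 and 13.3. Most of this marker set was therefore not seen at a signal of 50, although Ttr and Otx2 were well above the median probe set in most arrays. Since probe sets differ in their response, a low signal does not show that a gene was absent.

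The 9 listed genes that passed the filter are also known from other cells. In rcCHIL3, 3 were higher and 3 lower at 3 days (median change -0.14), with 5 higher and 2 lower at 7 days (median 0.89). Of all genes, 30.3% were higher and 22.1% lower at 3 days, and 21.8% and 22.6% at 7 days. The lists overlap: Foxj1 is counted again among the cilia genes below, Atp1b1, Slc4a2 and Car12 among the transporters and Slco1c1 in hormone carriage. Igfbp2, an insulin-like growth factor binding protein, was lower at 3 days (-3.49) and higher at 7 days (1.24). Car12, a carbonic anhydrase, moved likewise (-1.11 and 2.03), and Ecrg4 was higher at 7 days (1.52, and -0.19 without a call at 3 days). Atp1b1, a subunit of the sodium pump, was higher at both times (1.76 and 1.14), while Slc29a4 and Slc4a2, transporters of monoamines and anions, were lower at 7 days (-0.69 and -0.51) and Slco1c1, a thyroxine transporter, was lower at 3 days (-0.44).

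**Figure D5:**
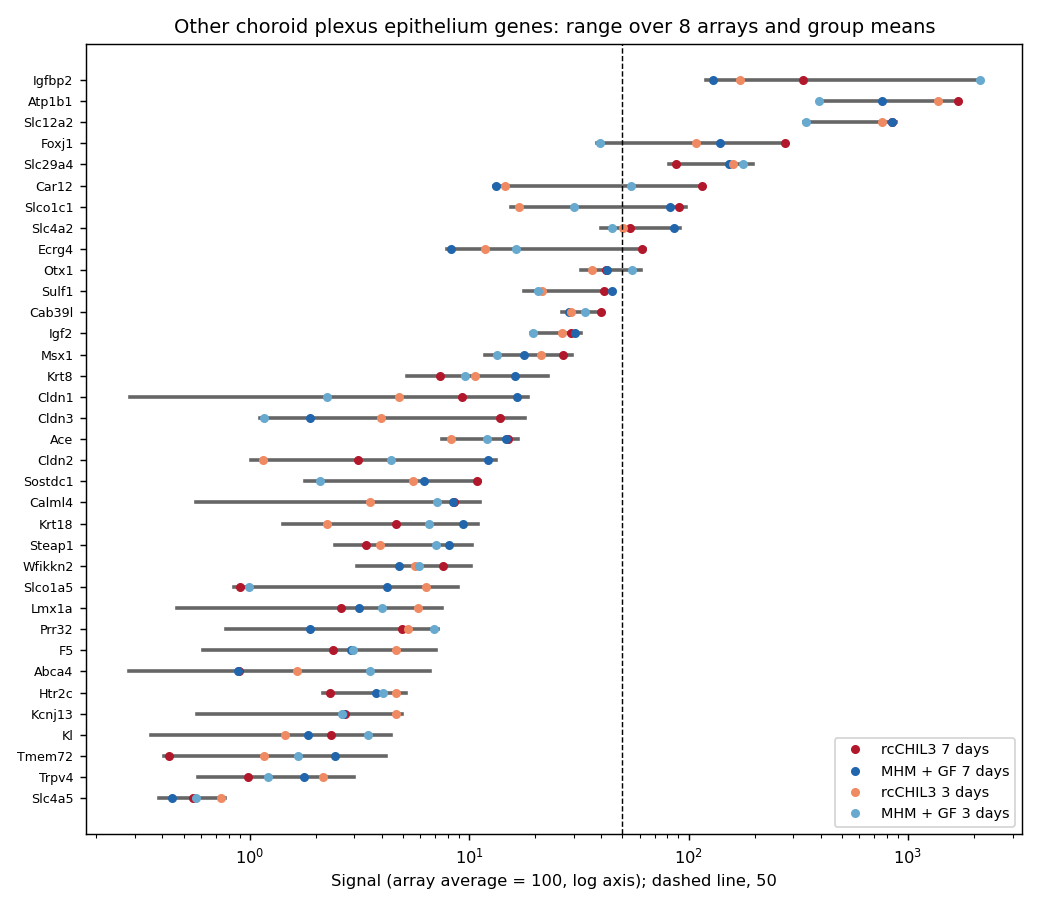
Signal of 35 other choroid plexus epithelium genes (horizontal axis, log, array average 100); gray bars span the 8 arrays, points are group means of 2 arrays and the dashed line is at 50. Of these, 25 genes stayed below 50 on all arrays, and the means of Igfbp2 and Car12 moved in opposite directions at 3 and 7 days.

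Ependymal and motile cilia genes mark structures that choroid plexus shares with the ventricle lining. Of 26 on the array 16 were below 50 on all arrays and 9 passed the filter, Rarres2 among them, against 8975 of all 18194 genes. Of these 9, all were higher with time in rcCHIL3 and 8 in MHM + GF, and none was lower, against 20.4% and 34.0% of all genes called higher. In rcCHIL3 7 were higher and none lower than in MHM + GF at 7 days, and 6 were higher and 2 lower at 3 days. The median changes were 0.89 and 0.41. Between media, 21.8% of all genes were called higher and 22.6% lower at 7 days, and 30.3% and 22.1% at 3 days. Rarres2, and any other gene that reached 50 only on 7-day arrays, passed the filter where it is high. For such genes the counts with time support nothing. Neither does the count between media at 7 days for Rarres2, or for any other gene that reached 50 only on the rcCHIL3 arrays at 7 days. Tppp3, a tubulin-binding protein, changed by 2.58 at 3 days and 2.44 at 7 days, and Foxj1, the regulator of motile cilia, by 1.11 and 0.89. Rsph1 was lower at 3 days (-0.43) and higher at 7 days (1.17), as was Mlf1 (-0.44 and 0.88). The summed signal of the list was 1795 and 1854 with rcCHIL3 and 751 and 854 with MHM + GF at 7 days, and 607 and 604 with rcCHIL3 and 256 and 257 with MHM + GF at 3 days. It moved with Rarres2 and Folr1, and its part in their changes was not tested.

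Partners of the 7 genes were examined next, and their counts stand against the same shares of all genes (30.3% higher and 22.1% lower at 3 days, 21.8% and 22.6% at 7 days). Of 11 genes of retinol and thyroid hormone carriage, Ttr's role, 3 passed the filter, with 2 higher and 1 lower at 3 days (median 0.20) and 1 lower at 7 days (median -0.14) in rcCHIL3. Apoe was higher (0.56) and Slco1c1 lower at 3 days, and the thyroid hormone receptor Thra was higher at 3 days and lower at 7 days (0.20 and -0.40). Rbp4, the retinol-binding partner of TTR, stayed between 5.7 and 18.9, and the 3 chemerin receptors on the array (Cmklr1, Gpr1 and Ccrl2) did not exceed 17.3. Of 13 folate uptake and one-carbon genes 8 passed, with none higher and 4 lower at 3 days (median -0.32) and 4 higher and 2 lower at 7 days (median 0.19) in rcCHIL3. Shmt1 (-1.37 and -0.40) and Aldh1l1 (-1.24 and -0.54), both enzymes of folate metabolism, were lower at both times, while Mthfd1l was lower and then higher (-0.53 and 0.85), as was Shmt2 (-0.41 and 0.30).

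The next list held 14 genes, some around lysophosphatidic acid, the product of autotaxin, and some relatives of autotaxin in the Enpp family. Of these 10 passed, with 6 higher and 2 lower at 3 days (median 0.34) in rcCHIL3. At 7 days 5 were higher and 2 lower (median 0.17). Of all genes, 30.3% and 22.1% were called at 3 days and 21.8% and 22.6% at 7 days. The counts mix both kinds of gene and are not a result on lysophosphatidic acid alone. Enpp6, a relative of autotaxin, was higher at both times (2.06 and 0.44), as were Enpp4 (1.74 and 0.25), Plpp2 (0.77 and 1.32) and the receptor Lpar1 (0.45 and 1.31). Plpp1 was lower at 3 days (-0.59), Lpcat1 was lower at 7 days (-0.56), and the receptors Lpar4 (0.24 and -0.70) and Lpar6 (-0.34 and 0.47) moved in opposite directions at the 2 times. Of 13 other aquaporins and CLIC genes 3 passed, with medians of -0.42 at 3 days and 0.01 at 7 days. Aqp4, the astrocyte water channel, was higher at 3 days (1.41), Clic1 was lower at 3 days (-0.49), and Clic4 was lower at both times (-0.42 and -0.43).

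Of 19 transporters and pumps of fluid secretion 12 passed, with 6 higher and 4 lower at 3 days (median 0.39) and 6 higher and 2 lower at 7 days (median 0.16) in rcCHIL3. The shares over all genes were 30.3% and 22.1% at 3 days and 21.8% and 22.6% at 7 days. Fxyd1, a regulator of the sodium pump, was higher at 3 days (2.71), and the carbonic anhydrase Car2 was lower at 3 days and higher at 7 days (-1.37 and 0.28). Of 26 genes of dorsal midline and retinal pigment epithelium, where OTX2 also acts, 7 passed, Ttr among them, with 4 higher and 3 lower at 3 days (median 1.08) and 2 higher and 3 lower at 7 days (median 0.11) in rcCHIL3. The pigment genes Dct (1.53 and 3.52) and Mitf (1.08 and 0.32) were higher at both times. Rdh5, a retinol dehydrogenase, was higher at 3 days and lower at 7 days (2.93 and -0.57). Rlbp1 (-0.45 and -1.08) and Zic1 (-1.15 and -0.68) were lower at both times and Six3 at 3 days (-0.67), while Tyr and Rpe65, defining genes of pigment cells, did not exceed 6.4 and 6.1.

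Markers of other cell types had low signals. The 4 liver genes, Alb, Apoa1, Apoa2 and Fgb, did not exceed 7.0 on any array. Their summed signal was 12 and 11 with rcCHIL3 and 4 and 13 with MHM + GF at 7 days, and 12 and 2 with rcCHIL3 and 8 and 12 with MHM + GF at 3 days. The 6 endothelial, 7 microglial and 2 blood markers were below 50 on all arrays, with summed signals of at most 46, 51 and 8. Of 9 meningeal and fibroblast genes 7 were below 50 on all arrays, and Ptgds and Pdgfra, also known from glial cells, were above it. Among all genes on the array, 8975 of 18194 passed the filter. Of the 4 arrays highest for Ttr, the summed choroid plexus list was 3844 and 3839 on those of rcCHIL3 at 7 days, 2532 on array 2 of MHM + GF at 7 days and 2906 on array 2 of rcCHIL3 at 3 days. It was 3497 on the array lowest for Ttr, array 1 of MHM + GF at 3 days, where Igfbp2 alone averaged 2128 in that group. The part of other cells in the spread of Ttr was not tested.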

How the data were processed

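The authors hybridized RNA of 8 neurosphere cultures to Affymetrix GeneChip Mouse Genome arrays and deposited linear MAS5 signal intensities, 1 column per array (GeneChip Operating Software in the study's methods, Affymetrix Expression Console 1.1 in the submitters' processing notes). The deposited intensities averaged between 267 and 317 per array, so each array was rescaled to an average of 100 over all 45101 probe sets. The number of arrays, 2 per group, limits the precision. Probe sets were named from the platform annotation: 34958 had 1 gene symbol, 932 several and 9211 none, and only the first were named. The 64 array controls were left out of the fits. Probe sets with a signal of 50 on at least 2 arrays (15679) were compared as log2(signal + 20), in a linear model of the 4 groups with limma 3.58.1 under R 4.3.3. Variances were moderated along an intensity trend, with 4 degrees of freedom left among the arrays. Two-sided p-values were corrected after Benjamini and Hochberg over all probe sets fitted. Members under the filter were taken from the same fit on all probe sets without the controls. The fit was tested on simulated data. Summaries used pandas 2.3.3 and numpy 2.4.6 under Python 3.11.15, and plots used matplotlib 3.10.9.

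All probe sets of the member genes are given, and a gene's value is that of its brightest probe set by mean signal. From each list, the 4 genes with the largest change by rcCHIL3 at either day and those called in the opposite direction were named. Some list genes outside the filter were named after their values were seen. The members and lists were chosen with earlier results of these data known. Alternatives were another offset, a floor, other filters, scalings and variance moderation, the mean of a gene's probe sets, the groups compared alone, the test given in the methods, a replicate block and leaving out each array.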

Additional observations from a re-analysis of the deposited data

Results flagged for a closer look

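For a pair of genes the change by rcCHIL3 on the log2(signal + 20) scale differed between 7 and 3 days by the interaction test, in opposite directions. For Rarres2 (1437902_s_at) it was larger at 7 days, by 0.64 on the log2 scale (SE 0.21, adjusted p = 0.0285), and over the leave-one-out fits this ranged between 0.40 and 0.88, with adjusted p between 0.00242 and 0.0974. It was 0.48 with an offset of 50 and 1.49 with a floor of 10 and no offset, the adjusted p was 0.109 without a filter, and the ratio of mean signals was 3.16 at 7 days and 2.92 at 3 days, with all 3-day arrays at or below the median probe set. For Folr1 (1450995_at) it was smaller at 7 days, by -0.60 (SE 0.18, adjusted p = 0.0184), between -0.80 and -0.41 over the leave-one-out fits, with adjusted p between 0.0026 and 0.0599. Of all probe sets tested, 18.7% were called with a larger and 22.7% with a smaller effect at 7 days. With an offset of 50 the Folr1 difference was -0.26 (adjusted p = 0.102).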

How the results depend on the processing

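The falls of Otx2 at both times and the rise of Folr1 at 3 days passed the threshold under the settings that tested them, except as follows. The test given in the methods lost Otx2 at 3 days, adjusted or not, and at 7 days after adjustment. Both genes also passed with each array left out. Folr1 was not tested with a filter of 100, which left it out. The rise of Ttr at 3 days was also lost without a trend (adjusted p = 0.0654), without a filter (0.155) and with quantile normalization (0.0554). It was lost too with the groups compared alone (0.0533) and by the t test given in the methods (adjusted p = 0.445, and not past 0.05 unadjusted). The rise of Ttr with time in MHM + GF was also lost without a filter (0.0518) and by that test (adjusted p = 0.282, likewise). The rise of Rarres2 at 3 days was lost with an offset of 50, a floor of 10, median centring and no filter. The t test given in the methods lost it at 3 days (adjusted p = 0.130, and not past 0.05 unadjusted) and at 7 days (adjusted p = 0.154, likewise). Counts below are of the member probe sets that passed the filter under each setting, which were 7 except for 12 without a filter, 9 on the deposited scale and 5 with a filter of 100.

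Higher at 3 days (5 probe sets) became 3 with a filter of 100, an offset of 50, median centring, a floor of 10, quantile normalization or the groups compared alone, 2 with robust or untrended moderation or no filter, 1 with the test given in the methods, adjusted or not, and 1 to 5 with an array left out; lower (1) became 0 with the test given in the methods, adjusted or not. At 7 days higher (1) became 0 with a filter of 100 or the test given in the methods, adjusted or not, 2 without a filter, 3 on the deposited scale and 1 to 2 with an array left out; lower (1) became 0 with the test given in the methods after adjustment. With time in MHM + GF, higher (6) became 2 with robust moderation, 3 without a filter, 1 with the unadjusted and 0 with the adjusted test given in the methods, and 2 to 6 with an array left out, where lower was 0 to 1. With time in rcCHIL3, higher (2) became 0 with a filter of 100 or the adjusted test given in the methods and 7 on the deposited scale. For the difference of effects, higher (1) became 0 with a filter of 100, no filter or the deposited scale, and 0 to 1 with an array left out; lower (1) became 0 with a filter of 100, an offset of 50 or no filter, 5 on the deposited scale and 0 to 4 with an array left out. The filter of 100 left out Rarres2 and Folr1. On the deposited scale the fit gave 215 prior degrees of freedom, against 7.2 in the main one, and so set the SD of Ttr at 0.20 in place of its own 1.01.

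With an array left out, Ttr between media at 7 days ranged between -0.27 and 0.64, Ttr with time in rcCHIL3 between -0.079 and 1.50, and the difference of effects for Otx2 between -0.11 and 0.14, so these have no settled direction. The differences between arrays 2 and 1 correlated little between groups over the probe sets of the filter (r from -0.011 to 0.102). The main fit assumed no pairing, and these values do not show whether the experiments were paired. With the replicate number as a block 6 probe sets were higher and 1 lower at 3 days, and no other count of calls changed. In that fit the change of Ttr between media at 3 days was again 1.55 (adjusted p = 0.0168). The groups compared alone and the test given in the methods give no difference of effects.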
